A study of Mus musculus with 33 samples.

Results

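The 33 germline and meiosis genes described here were picked by name from the 37991 gene identifiers counted in each library. They fell into 10 genes of the piRNA pathway, 11 genes of meiosis and 12 germ cell regulators or other germ cell proteins. Some were picked because their counts were higher in mutant embryoid bodies treated with retinoic acid. Values from those libraries are therefore given as a description, with no test, and tests are kept to the other stages. The same clones were used at every stage, so that the other stages are other libraries but not other clones. Untreated embryoid bodies of a clone came from the same culture as the treated ones. Tests in them are therefore not independent of the choice of members.

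The libraries were RNA-seq of E14TG2a mouse embryonic stem cells (mESCs), an established line, sampled undifferentiated, as embryoid bodies (EBs, floating aggregates in which mESCs differentiate) on day 8, or as EBs given 5 µM retinoic acid (RA) from day 4 to day 8 (EBs + RA). Wild-type control clones #1, #4 and #7 were transfected with an empty Cas9 plasmid. Neil1 knockout clones #7, #9 and #11 and Neil2 knockout clones #1, #11 and #14 were made with guides against Neil1 or Neil2, the genes of base excision repair glycosylases. The Apex1 knockout, in the gene of the abasic site endonuclease, was represented by clone #46 alone, sequenced as technical duplicates. All lines, controls included, went through transfection with Cas9 and puromycin selection plasmids, and EBs and EBs + RA of a clone were divided from 1 culture on day 4. Each group thus held 3 libraries from 3 clones, or 2 libraries of 1 clone for Apex1. A p-value for Apex1 does not cover variation between Apex1 clones, which cannot be told apart from the effect of the genotype.

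The piRNA pathway makes small RNAs that guide PIWI proteins to transposon transcripts and silence transposons in the germ line. Meiosis genes build the meiosis-specific cohesin, and also the synaptonemal complex, which holds homologous chromosomes together. Stra8 marks the entry into meiosis that RA triggers in germ cells. Germ cell regulators specify primordial germ cells and keep their RNA program. In somatic cells, many promoters of this kind are held silent by DNA methylation and by repressor complexes, while mESCs transcribe a part of the set.

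Between 21523742 and 48350904 counts on genes were obtained per library. The mESC library of Neil1 clone #11 held 0.94% of its counts on chromosome X, against 3.14% to 4.58% in the others, and 0 counts on chromosome Y, while no member lies on either chromosome. It had counts on 287 genes of chromosome X, against 807 to 926 in the others. The same clone held 4.39% on X and 9612 counts on Y in EBs, and 3.27% and 5291 in EBs + RA. The cause was not tested. Genes of both chromosomes were not removed from the all-gene shares of fits with this library. The counts did not check the genotypes. The edits remove only a stretch of each gene, and the cause of the following levels was not tested. Neil1 levels in Neil1 mESC libraries were 31.6, 2.51 and 7.28 CPM (counts scaled to library size by edgeR's TMM factors) against 7.67 to 9.83 CPM in controls. In Neil1 EBs they were 6.06, 1.42 and 3.15 CPM against 5.97 to 9.2 CPM. In Neil1 EBs + RA they were 4.35, 2.2 and 2.92 CPM, below every control (5.89 to 8.07 CPM). Neil2 levels in Neil2 libraries overlapped those of controls in mESCs and EBs and were above them in EBs + RA (4.87 to 5.78 CPM against 3.32 to 4.48 CPM). Apex1 levels were 56.0 to 85.5 CPM in the libraries labelled Apex1 knockout against 4.4 to 22.2 CPM in all others. Genotypes below are those of the labels. All 10 pluripotency markers examined were above 0 in every group, so that their presence alone does not mark a stage. In controls they summed to 6340 to 6910 CPM in mESCs, 3460 to 3940 CPM in EBs and 248 to 322 CPM in EBs + RA. Endoderm markers of controls summed to 7.93 to 12.5 CPM in mESCs and 219 to 435 CPM in EBs. Mesoderm markers summed to 12.7 to 16.2 CPM and 217 to 308 CPM. Exons of Sycp3 overlap those of Chpt1, and exons of Dnd1 those of Wdr55, on the opposite strand, and reads of such partners may not have been separated.

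Promoter sequences are shown for the 6 members with the largest fold changes past the test in EBs or between control mESCs and EBs, because these genes carry the stage and genotype differences described below. Each line gives the 250 bases before the RefSeq transcript start on the strand of the gene (GRCm38.p6), 5′ to 3′. Capitals mark 3 motifs searched on both strands, the E-box CACGTG, which is its own reverse complement, the E2F motif GGCGGGAA, and AGGTCA, the core element read by RA receptors and other nuclear receptors. No printed match overlaps another.
Stra8: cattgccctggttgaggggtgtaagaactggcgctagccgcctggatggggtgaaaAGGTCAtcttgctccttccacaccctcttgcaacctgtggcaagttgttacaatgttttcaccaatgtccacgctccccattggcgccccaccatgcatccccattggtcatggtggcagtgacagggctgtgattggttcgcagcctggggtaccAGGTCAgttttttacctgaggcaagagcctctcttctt
Hormad1: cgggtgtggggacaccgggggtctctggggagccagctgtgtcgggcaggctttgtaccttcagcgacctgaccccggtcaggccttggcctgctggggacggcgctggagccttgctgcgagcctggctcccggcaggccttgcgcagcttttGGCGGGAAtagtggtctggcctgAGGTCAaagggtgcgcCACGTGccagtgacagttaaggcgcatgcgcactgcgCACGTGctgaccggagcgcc
Asz1: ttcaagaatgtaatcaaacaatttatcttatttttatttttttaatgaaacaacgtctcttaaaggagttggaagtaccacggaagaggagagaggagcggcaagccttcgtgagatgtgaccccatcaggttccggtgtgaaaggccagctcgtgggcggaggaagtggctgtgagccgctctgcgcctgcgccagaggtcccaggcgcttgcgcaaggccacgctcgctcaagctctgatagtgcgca
Syce1: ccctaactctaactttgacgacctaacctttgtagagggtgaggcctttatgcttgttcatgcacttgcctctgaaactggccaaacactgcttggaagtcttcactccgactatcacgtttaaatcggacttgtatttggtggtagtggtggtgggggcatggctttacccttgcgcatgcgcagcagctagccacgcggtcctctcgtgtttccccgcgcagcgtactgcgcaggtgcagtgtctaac
Tdrd5: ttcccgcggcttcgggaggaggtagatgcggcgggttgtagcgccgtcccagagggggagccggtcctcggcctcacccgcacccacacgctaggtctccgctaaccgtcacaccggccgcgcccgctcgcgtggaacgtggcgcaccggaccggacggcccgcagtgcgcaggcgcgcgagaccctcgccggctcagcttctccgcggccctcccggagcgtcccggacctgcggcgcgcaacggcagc
Dpep3: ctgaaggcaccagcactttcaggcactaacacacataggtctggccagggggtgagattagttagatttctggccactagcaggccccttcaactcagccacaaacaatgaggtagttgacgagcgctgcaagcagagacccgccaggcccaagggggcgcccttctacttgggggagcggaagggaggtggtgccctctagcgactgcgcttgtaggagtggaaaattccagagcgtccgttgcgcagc

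The Stra8 window (chr6:34920698-34920947, plus strand) held AGGTCA at positions -194 and -38 from the transcript start and no E-box. The Hormad1 window (chr3:95559427-95559676, plus strand) held E-boxes at -57 and -20, the E2F motif at -96 and AGGTCA at -73. Asz1 (chr6:18109062-18109311, minus strand), Syce1 (chr7:140787855-140788104, minus strand), Tdrd5 (chr1:156303349-156303598, minus strand) and Dpep3 (chr8:105979420-105979669, minus strand) had none of the 3 in these letters. Of 29 members with a RefSeq promoter in the table used here, 14 (48.3%) held CACGTG against 1854 of 27025 genes (6.86%), 3 (10.3%) held GGCGGGAA against 2.13% of genes, and 5 (17.2%) held AGGTCA against 15.8%. The median number of CpG dinucleotides in these windows was 16 for members and 6 for all genes, and it was 20.5 in piRNA genes, 13.0 in meiosis genes and 14.5 in germ cell regulators. CACGTG and GGCGGGAA each hold a CpG. The 27025 genes were not limited to tested genes or to those with as many CpGs as members. Tdrd6, Piwil2, Dnd1 and Prdm14 were not matched.

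Many members were expressed in control mESCs, where 31 of 33 members had a group mean of at least 1 CPM and 20 of at least 10 CPM. Per kilobase of exon, Stra8 was highest (mean 57.7 CPM per kb, libraries from 41.5 to 79.8), followed by Syce2 of the synaptonemal complex (43.7, from 25.9 to 54.9), and these neighbours overlapped. Sohlh2, a helix-loop-helix factor of spermatogonia and oocytes (27.3), Mael, which silences transposons (25), Hormad1, which loads on the axis of meiotic chromosomes (24.8), Syce1 (22.5) and the cohesin subunit Stag3 (20.1) came next, each overlapping its neighbour. The lowest was Tdrd6 (0.0634 CPM per kb, from 0.0168 to 0.106), a Tudor domain protein of germ granules. In control EBs, Syce2 was highest (36.3 CPM per kb, from 33.1 to 38.2), above Mael (17.0, from 14.6 to 19.0) without overlap, and Stra8 stood at rank 20 (2.68). In control EBs + RA, Stra8 was highest again (181 CPM per kb, from 119 to 274), ahead of the cohesin subunit Rec8 (34.8, from 27.6 to 46.1). No member had a library with 0 counts, and the lowest count was 1.

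**Figure D1:**
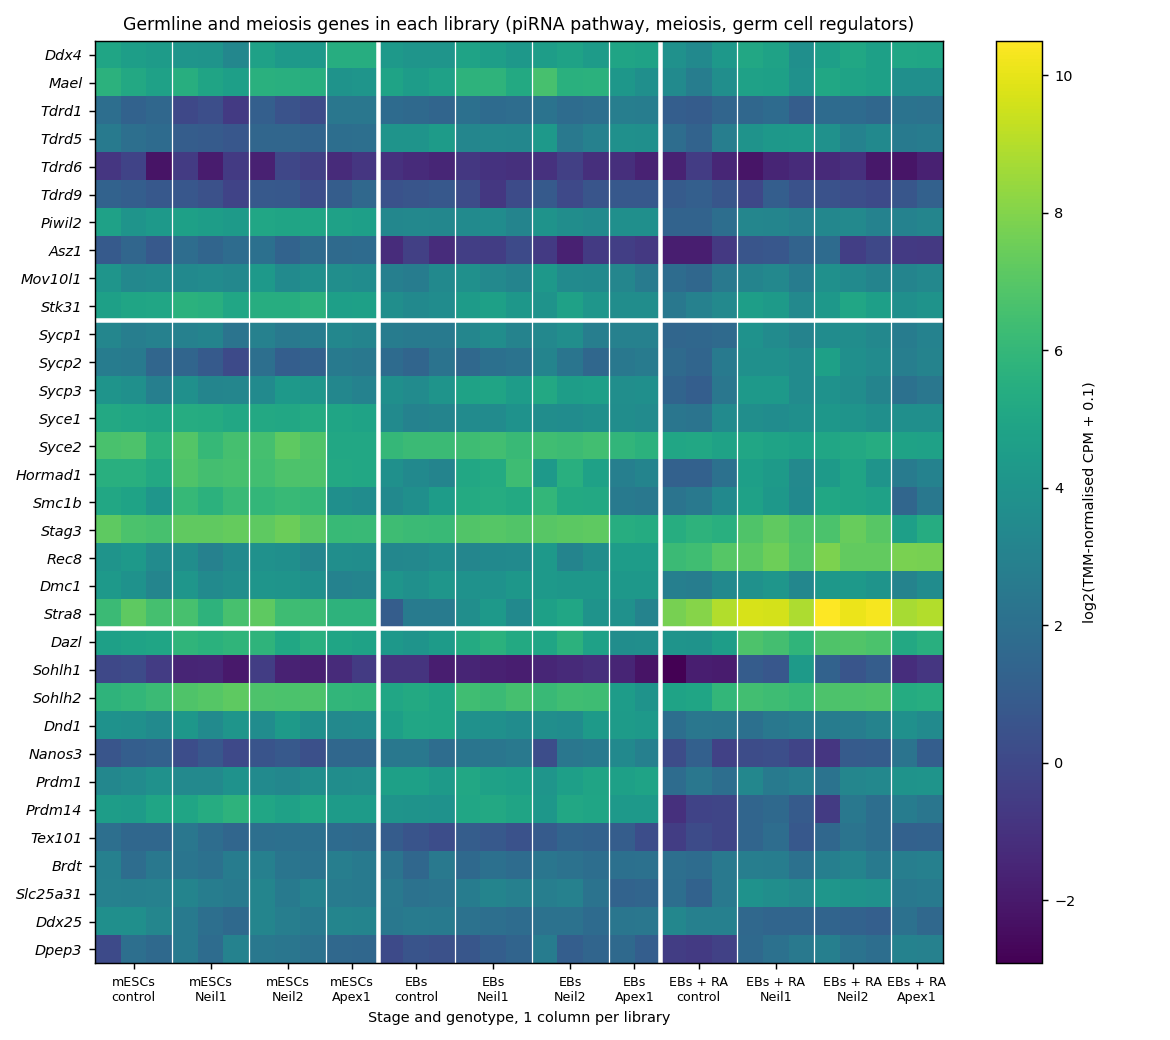
Level of each of the 33 members (rows, grouped into piRNA pathway, meiosis and germ cell regulators) in each of the 33 libraries (columns, by stage and genotype), as log2 of TMM-normalised CPM plus 0.1. Stra8 is bright in mESCs and EBs + RA and dark in control EBs, where its 3 libraries hold 1.97 to 6.32 CPM.

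Most members fell when control mESCs became EBs. With edgeR's quasi-likelihood test, an adjusted p (Benjamini-Hochberg over all tested genes) below 0.1 and a log2 fold change beyond 0.5 in size, which define "rose" and "fell" here, 20 of 33 members fell (60.6%) against 20.2% of 15799 tested genes, and 4 rose (12.1%) against 18.5%. The median log2 fold change of the members was -0.62, and that of all tested genes -0.02. Over the same libraries 9 of 10 pluripotency markers fell, and their summed level went from 6340 to 6910 CPM in mESCs to 3460 to 3940 CPM in EBs. All 10 of these markers were above 0 in every group. In bulk RNA, fewer cells of a type and less RNA per cell cannot be told apart, and the part of undifferentiated cells in the members' levels was not tested.

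Stra8 showed the largest fall. Its level was 74.8, 144 and 93.2 CPM in control mESCs and 1.97, 6.32 and 6.22 CPM in control EBs, and the stages did not overlap (log2 fold change -4.50, SE 0.44, adjusted p = 8.3e-05). Asz1, which anchors piRNA factors at mitochondria, went from 1.75, 2.78 and 1.66 CPM to 0.324, 0.663 and 0.331 CPM (-2.29, SE 0.40, adjusted p = 0.00208). Hormad1 went from 46.2, 46.2 and 36.4 CPM to 14.0, 11.0 and 8.68 CPM (-1.97, SE 0.19, adjusted p = 7.2e-05). Every EB library of these genes was below every mESC library. Syce1 (-1.84, SE 0.16), Stk31, a kinase-like Tudor domain protein (-1.35, SE 0.14), and Piwil2, a PIWI protein (-1.15, SE 0.20), fell as well. Dnd1, Nanos3, Prdm1 and Tdrd5 went the other way. Dnd1, an RNA-binding protein needed by primordial germ cells, rose from 15.2, 14.1 and 11.2 CPM to 25.1, 32 and 30.9 CPM (1.08, SE 0.17, adjusted p = 0.0011). Nanos3, a translational regulator of primordial germ cells (1.28, SE 0.28, adjusted p = 0.00665), and Prdm1, a transcriptional repressor that specifies them (0.98, SE 0.18, adjusted p = 0.00276), rose too. The largest rise was that of Tdrd5, a Tudor domain protein of the piRNA pathway, from 6.10, 3.83 and 3.28 CPM to 16.3, 16.3 and 22.0 CPM (2.01, SE 0.26, adjusted p = 3.9e-04).

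The remaining falls in controls were those of Ddx4, Mael, Mov10l1, Smc1b, Stag3, Rec8, Dazl, Sohlh1, Sohlh2, Prdm14, Tex101, Slc25a31, Ddx25 and Dpep3, with log2 fold changes from -0.56 to -1.25. With the clone as a block, since a clone is the same at each stage, Rec8 (-0.59, adjusted p = 0.116), Mov10l1 (-0.66, adjusted p = 0.103) and Smc1b (-0.87, adjusted p = 0.137) no longer passed. Leaving out 1 library gave 18 to 27 members past the test. Mael, Mov10l1, Smc1b, Rec8, Sohlh1, Dpep3, Ddx4 and Stag3 each lost their call without at least 1 of the 6 libraries, Ddx4 and Stag3 only without mESC control clone #1.

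In Neil1-deficient cells, 10 of 32 tested members fell from mESCs to EBs (14.7% of all tested genes fell) and 7 rose (13.1%), and in Neil2-deficient cells 9 of 32 fell (13.1%) and 5 rose (14.4%). Stra8 fell in both, from 96.2, 53.6 and 95.7 CPM to 13.1, 19.12 and 10.8 CPM in Neil1 (log2 fold change -2.52, SE 0.30) and from 142, 79.2 and 78.7 CPM to 25.9, 31.8 and 15.6 CPM in Neil2 (-2.04, SE 0.31). Tdrd1, a Tudor domain scaffold of the piRNA pathway, rose in both (2.06, SE 0.32, and 1.41, SE 0.32), as did the synaptonemal complex protein Sycp3 (1.31, SE 0.20, and 0.78, SE 0.24). In control cells Tdrd1 was at 3.65, 2.36 and 2.81 CPM in mESCs and 3.26, 3.12 and 2.65 CPM in EBs. With the clone as a block, Sycp1 (0.53, adjusted p = 0.0945) and Mael (0.56, adjusted p = 0.017) also passed in Neil1, and in Neil2 Sycp2 passed (0.91, adjusted p = 0.0713) while Nanos3 did not (1.26, adjusted p = 0.106). Without single libraries, 15 to 18 members passed in Neil1 and 10 to 17 in Neil2. In Neil1, Sycp2, Hormad1 and Ddx4 each lost their call in at least 1 of these fits. In Neil2, Smc1b, Nanos3, Tex101, Ddx25 and Sycp3 did so.

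Whether the change from mESCs to EBs differed from that in controls was tested by the interaction of stage and genotype. At an adjusted p below 0.1, with no limit on size, 6 of 33 members passed for Neil1 and 4 of 33 for Neil2, against 10.4% of all tested genes in each test (5 higher and 1 lower, and 3 higher and 1 lower). Tdrd1 changed by 2.06 (SE 0.40, adjusted p = 0.00788) more in Neil1 cells than in controls on the log2 scale and by 1.39 (SE 0.40, adjusted p = 0.0559) more in Neil2 cells. Dnd1 changed less, by -1.26 (SE 0.27, adjusted p = 0.0132) and -1.16 (SE 0.34, adjusted p = 0.0623). Stra8 fell less in Neil2 cells, with a difference of 2.44 (SE 0.57, adjusted p = 0.0236). The helicase Ddx4 (1.32, SE 0.31, adjusted p = 0.0214), Mael (1.14), Sycp2 (1.64) and Sycp3 (1.20) passed for Neil1, and Sycp1 (1.07) for Neil2. Blocked by clone, Sycp3 (1.15, adjusted p = 0.17) and Sycp2 (1.67, adjusted p = 0.207) were lost for Neil1 while Sycp1 (1.00, adjusted p = 0.0758) and Stra8 (2.06, adjusted p = 0.0918) passed, and for Neil2 Sycp1 (1.03, adjusted p = 0.164) and Dnd1 (-1.15, adjusted p = 0.137) were lost. The counts ran from 3 to 8 and from 1 to 7 without single libraries. Mael, Sycp2 and Sycp3 were lost together without control clone #1 or #4 or Neil1 clone #9 at either stage, without mESC Neil1 clone #11, and without EB Neil1 clone #7. Mael was also lost without EB control clone #7 and Sycp2 without EB Neil1 clone #11, while Ddx4, Tdrd1 and Dnd1 passed in all 12 Neil1 fits. For Neil2, Stra8 passed in all 12 fits, and Tdrd1, Sycp1 and Dnd1 did not, the count dropping to 1 without mESC Neil2 clone #11, EB control clone #4 or EB control clone #7 and to 2 without mESC Neil2 clone #14 or EB control clone #1. As shares of the members these were 15.2% higher and 3.03% lower for Neil1 and 9.09% higher and 3.03% lower for Neil2.

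In undifferentiated mESCs, few members differed between mutants and controls, and those calls rested on particular libraries. In Neil1-deficient mESCs 4 of 33 members rose (12.1%, against 1.03% of 15569 genes) and 3 fell (9.09%, against 0.784%). In Neil2-deficient mESCs 4 of 33 rose (12.1%, against 1.4% of 15615 genes) and 0 fell (against 0.429%) by edgeR. In either direction 11 members had an unadjusted p below 0.05, a limit at which the share of all tested genes was not counted. By DESeq2 2 members were lower. Both comparisons share the control libraries. Hormad1, Smc1b, a meiosis-specific cohesin subunit, and Sohlh2 rose in both.

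Hormad1 was at 46.2, 46.2 and 36.4 CPM in control mESCs, 111, 90.6 and 97.6 CPM in Neil1 and 86.1, 107 and 110 CPM in Neil2 (log2 fold changes 1.20, SE 0.15, adjusted p = 0.0515, and 1.20, SE 0.14, adjusted p = 0.0396). Smc1b was at 35.1, 29.2 and 17.6 CPM in control, 66.5, 52.8 and 73.3 CPM in Neil1 (1.21, SE 0.25, adjusted p = 0.0839) and 63.2, 70.8 and 64.0 CPM in Neil2 (1.24, SE 0.22, adjusted p = 0.0581). All mutant libraries were above all control libraries for both genes, and also for Sohlh2 (0.96, SE 0.16, and 0.69, SE 0.13). Dazl, an RNA-binding protein that licenses germ cells for sexual development, rose in Neil1 (0.92, SE 0.14, adjusted p = 0.0611), and Stk31 in Neil2 (0.58, SE 0.13, adjusted p = 0.095). Tdrd1 (-1.79, SE 0.36, adjusted p = 0.0839), the helicase Ddx25 (-1.51, SE 0.30, adjusted p = 0.0839) and Sohlh1 (-1.95, SE 0.43, adjusted p = 0.0977), a helix-loop-helix partner of Sohlh2 at under 1.1 CPM in all these libraries, fell in Neil1. The 7 Neil1 calls all ended without control clone #1, control clone #4 or Neil1 clone #7, 1 was left without Neil1 clone #9, 2 without Neil1 clone #11, and 12 members passed without control clone #7. The 4 Neil2 calls all ended without control clone #4, Neil2 clone #11 or Neil2 clone #14, 2 were left without control clone #1 or Neil2 clone #1, and 11 members passed without control clone #7. The fold change of Hormad1 stayed between 1.09 and 1.26 in the 6 Neil1 fits and between 1.10 and 1.30 in the 6 Neil2 fits.

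In Apex1-deficient mESCs 2 of 33 members rose (6.06%, against 7.87% of 16240 genes) and 5 fell (15.2%, against 9.07%). The falls were in the meiosis genes Syce2 (log2 fold change -1.32, SE 0.31, adjusted p = 0.0469), Smc1b (-1.11, SE 0.28, adjusted p = 0.0545), Stag3 (-0.72, SE 0.19, adjusted p = 0.0589) and Stra8 (-0.94, SE 0.27, adjusted p = 0.0714) and in Mael (-1.27, SE 0.27, adjusted p = 0.0396). Ddx4 (0.75, SE 0.16, adjusted p = 0.0409) and Tdrd1 (0.79, SE 0.26, adjusted p = 0.0942) rose. Mael was at 15.8 and 16.5 CPM in the Apex1 duplicates and at 52.8, 36.4 and 26.9 CPM in controls. None of the 7 calls remained without control clone #4 or either Apex1 duplicate, or with the duplicates summed to 1 library, 3 remained without control clone #1, and 13 members passed without control clone #7. In these mESCs 3 of 10 pluripotency markers also fell, and their sum was 5090 to 5260 CPM against 6340 to 6910 CPM in controls.

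In EBs the 2 glycosylase mutants shared a larger set of higher members. In Neil1-deficient EBs 13 of 32 tested members rose (40.6%) against 10.4% of 15479 genes, and 3 fell (9.38%) against 13.1%. In Neil2-deficient EBs 12 of 32 rose (37.5%) against 8.65% of 15575 genes, and 1 fell (3.12%) against 7.69%. All 12 members that rose in Neil2 also rose in Neil1, and Dnd1 fell in both, in comparisons that share the 3 control libraries. These EBs came from the same cultures as the EBs + RA used in part to choose members. The shares are thus not independent of that choice. The median log2 fold change of the tested members was 0.42 in Neil1 and 0.51 in Neil2, against 0.00 and 0.02 for all tested genes. Sohlh1 had counts too low to be tested. Without Stra8, the members summed to 466 to 491 CPM in control EBs, 715 to 748 CPM in Neil1 and 715 to 777 CPM in Neil2.

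The pluripotency markers were higher along with the members in Neil1 and Neil2 EBs. In Neil1 EBs 10 of 10 markers rose (median log2 fold change 0.63), in Neil2 EBs 9 of 10 (0.70), and in Apex1 EBs 8 of 10 (0.81). Their sums were 3460 to 3940 CPM in control EBs, 5620 to 7200 CPM in Neil1, 5320 to 6960 CPM in Neil2 and 6640 to 6670 CPM in Apex1, and none of the 10 was at 0. Mesoderm markers were lower, with sums of 217 to 308 CPM in control EBs, 55.6 to 66.7 CPM in Neil1, 48.9 to 61.7 CPM in Neil2 and 98.5 to 112 CPM in Apex1. The part of these markers' cells in the members' levels was not tested. The Apex1 EBs had pluripotency marker sums within the range of the Neil1 and Neil2 EBs, and members summing without Stra8 to 404 and 434 CPM.

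**Figure D2:**
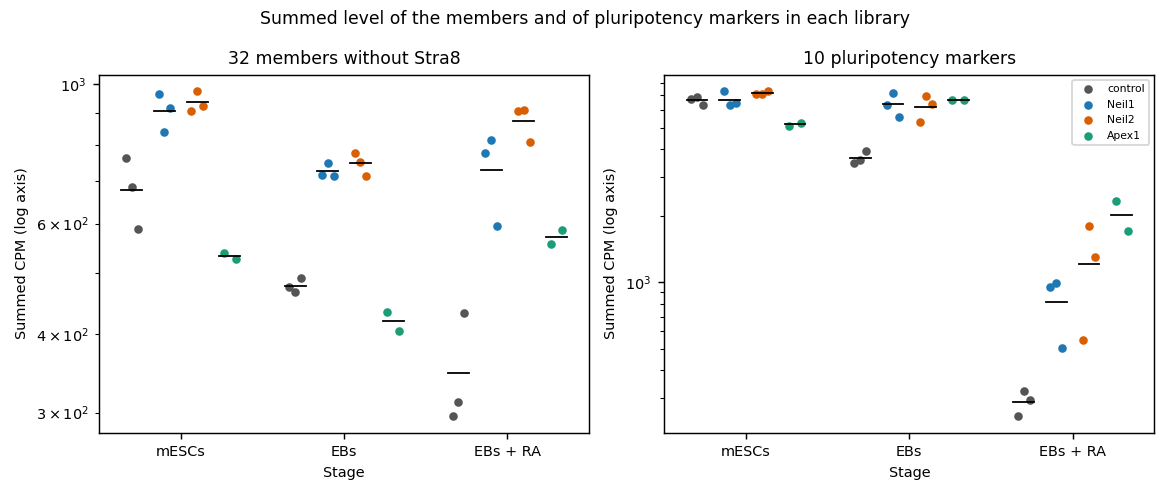
Summed CPM on a log axis of the 32 members without Stra8 (left) and of the 10 pluripotency markers (right) in each library (dots) by stage and genotype, with the group mean as a bar. In EBs the Neil1 and Neil2 libraries lie above control in both panels, while the Apex1 duplicates lie above control for the markers (6640 and 6670 CPM) and below it for the members (404 and 434 CPM).

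Of the meiosis members, 6 of 11 rose in each glycosylase mutant (10.4% of all tested genes rose in Neil1 and 8.65% in Neil2) and 0 fell. Hormad1 was at 14.0, 11.0 and 8.68 CPM in control EBs, 35.4, 38.5 and 79.4 CPM in Neil1 and 20.1, 47.3 and 26.7 CPM in Neil2 (log2 fold changes 2.18, SE 0.35, adjusted p = 0.00418, and 1.48, SE 0.32, adjusted p = 0.0185). Stra8 was at 13.1, 19.12 and 10.8 CPM in Neil1 (1.58, SE 0.44, adjusted p = 0.0333) and 25.9, 31.8 and 15.6 CPM in Neil2 (2.36, SE 0.45, adjusted p = 0.0115), against 1.97, 6.32 and 6.22 CPM in control. These Stra8 levels in mutant EBs were still below those of every mESC library. The cohesin subunit Smc1b was at 10.9, 13.3 and 22.6 CPM in control, 38.8, 41.3 and 37.8 CPM in Neil1 (1.33, SE 0.25, adjusted p = 0.00469) and 61.7, 37.0 and 36.6 CPM in Neil2 (1.53, SE 0.31, adjusted p = 0.0149). Stag3, another subunit of meiotic cohesin, had smaller fold changes, from 81.4, 75.6 and 73.3 CPM to 115, 125 and 116 CPM in Neil1 (0.62, SE 0.08, adjusted p = 2.7e-04) and 132, 139 and 146 CPM in Neil2 (0.86, SE 0.11, adjusted p = 0.00206). Mutant and control libraries did not overlap for any of these genes. The axis protein Sycp3 (0.95, SE 0.16, and 1.01, SE 0.21) and the transverse filament protein Sycp1 (0.73, SE 0.19, and 0.75, SE 0.25) rose in both mutants. The other meiosis members, Sycp2, Syce1, Syce2, Rec8 and the recombinase Dmc1, had log2 fold changes from -0.03 to 0.66 that did not pass.

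In the piRNA pathway 2 of 10 members rose in each mutant (10.4% of all tested genes rose in Neil1 and 8.65% in Neil2), and 1 of 10 fell in Neil1 (13.1%). Mael was at 29.4, 22.6 and 26.9 CPM in control EBs, 54.4, 56.2 and 37.2 CPM in Neil1 (log2 fold change 0.90, SE 0.16, adjusted p = 0.0026) and 96.1, 48.7 and 50.9 CPM in Neil2 (1.31, SE 0.26, adjusted p = 0.0133), with Neil2 clone #1 apart from the other two. Stk31 rose by 0.85 (SE 0.15, adjusted p = 0.00183) and 0.73 (SE 0.23, adjusted p = 0.0726). Tdrd5 fell in Neil1, from 16.3, 16.3 and 22.0 CPM to 9.26, 10.1 and 9.61 CPM (-0.92, SE 0.16, adjusted p = 0.00179). In Neil2 the same gene was at 20.1, 5.63 and 7.89 CPM, with clone #1 inside the control range (-0.69, SE 0.42, adjusted p = 0.336). Ddx4, Tdrd1, Tdrd6, Tdrd9, Piwil2, Asz1 and Mov10l1, a helicase that processes piRNA precursors, did not pass in either mutant, with log2 fold changes from -0.76 to 0.79.

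Among germ cell regulators 5 of 11 tested members rose in Neil1 (10.4% of all tested genes) and 4 in Neil2 (8.65%). Sohlh2 was at 32.4, 38.0 and 31.3 CPM in control EBs, 82.1, 75.4 and 94.1 CPM in Neil1 (log2 fold change 1.30, SE 0.12, adjusted p = 2.4e-05) and 72.0, 82.5 and 81.4 CPM in Neil2 (1.22, SE 0.13, adjusted p = 9.1e-04). Dazl was at 18.6, 16.5 and 21.8 CPM in control, 39.2, 50.3 and 37.1 CPM in Neil1 (1.15, SE 0.15, adjusted p = 2.5e-04) and 31.6, 52.9 and 26.9 CPM in Neil2 (0.97, SE 0.26, adjusted p = 0.04). Each mutant library was above each control library for both genes. Prdm14, which specifies primordial germ cells and is also part of the pluripotency network of mESCs, rose by 1.06 (SE 0.12, adjusted p = 9.4e-05) and 0.84 (SE 0.23, adjusted p = 0.0476), and Dpep3, a membrane dipeptidase of the testis, by 0.79 (SE 0.30, adjusted p = 0.0693) and 1.68 (SE 0.45, adjusted p = 0.0434). Slc25a31, an ADP/ATP carrier of the germ line, rose in Neil1 (0.66, SE 0.19, adjusted p = 0.0254) and had 0.41 (SE 0.26, adjusted p = 0.367) in Neil2.

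Dnd1 went the other way. It was at 25.1, 32 and 30.9 CPM in control EBs, 14.7, 14.0 and 11.9 CPM in Neil1 (log2 fold change -1.12, SE 0.15, adjusted p = 2.7e-04) and 12.9, 12.2 and 20.7 CPM in Neil2 (-0.95, SE 0.22, adjusted p = 0.0268), with no overlap. Ddx25 fell in Neil1 (-0.58, SE 0.19, adjusted p = 0.0447). Nanos3, Prdm1, the surface protein Tex101 and the bromodomain protein Brdt did not pass in either mutant (-0.33 to 0.60), and for Nanos3 the Neil2 clone #1 library had 1.07 CPM against 5.21 and 5.79 CPM in the other clones.

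Leaving out 1 library kept 13 to 16 calls in Neil1 EBs, with Slc25a31, Ddx25 and Dpep3 the calls that were lost in some fit. In Neil2 EBs the count was 8 without control clone #1, 7 without control clone #4, 10 without control clone #7, 15 without Neil2 clone #1, 10 without Neil2 clone #11 and 11 without Neil2 clone #14. The calls lost in at least 1 of these Neil2 fits were Stk31, Sycp1, Dazl, Dnd1, Prdm14 and Dpep3, while Mael, Sycp3, Hormad1, Smc1b, Stag3, Stra8 and Sohlh2 passed in all 6.

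**Figure D3:**
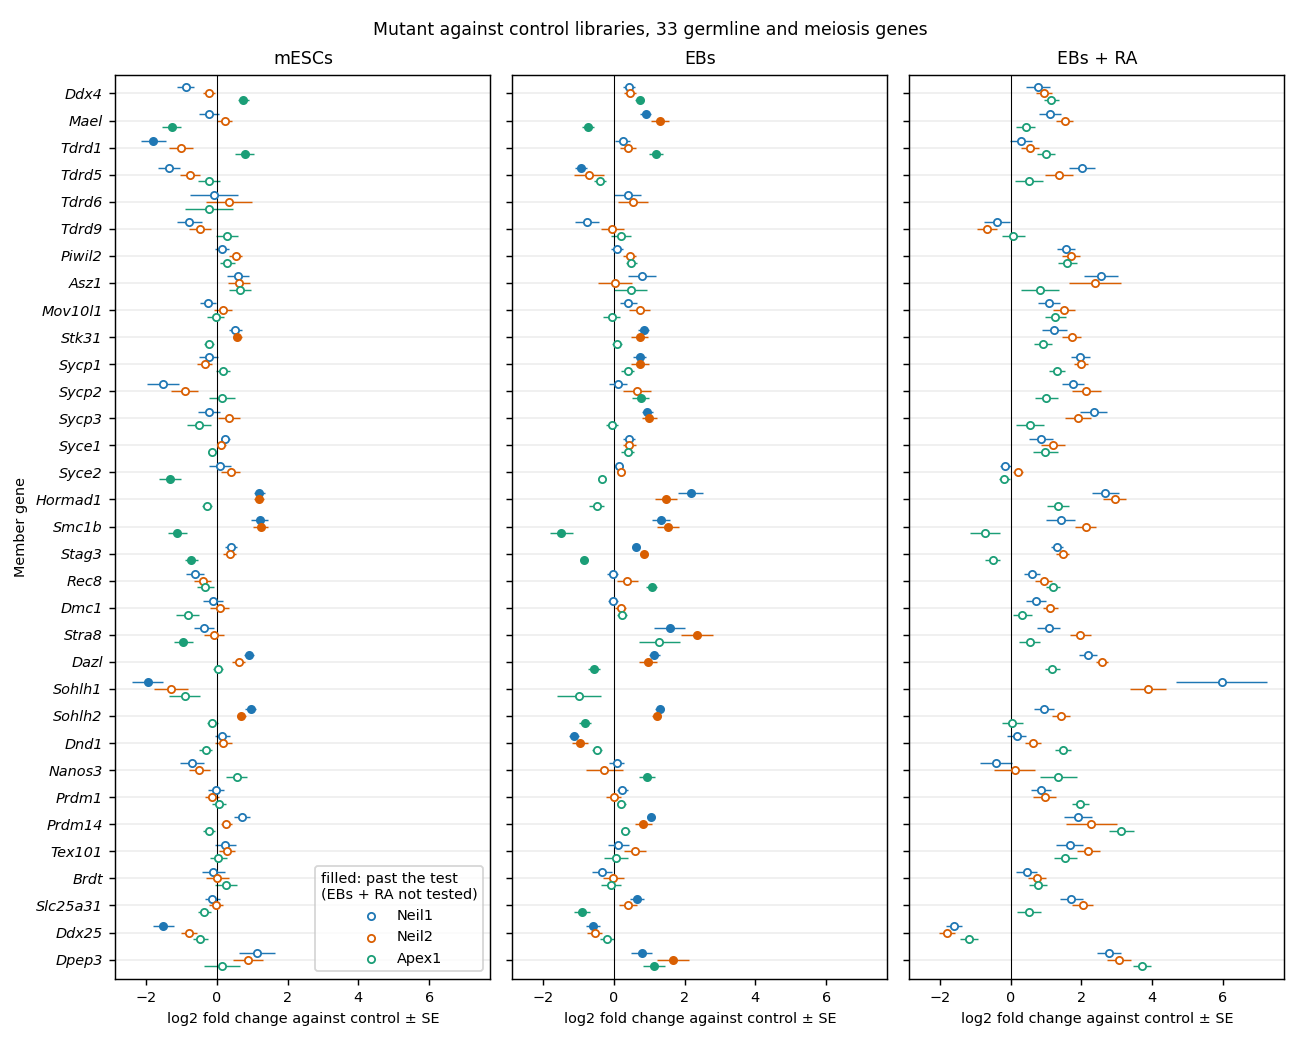
Log2 fold change of each member in mutant against control libraries of the same stage (horizontal axis, points with SE bars), for mESCs, EBs and EBs + RA, with filled points past the test and open points not past it in mESCs and EBs, and open points without a test in EBs + RA. In EBs the Neil1 and Neil2 points of 12 members lie to the right and those of Dnd1 to the left (-1.12 and -0.95), while Apex1 points of Smc1b (-1.48), Stag3 (-0.83) and Sohlh2 (-0.82) lie to the left. The EBs + RA panel is a description, since those libraries were used to choose members.

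Apex1-deficient EBs had a different split, with 6 of 32 tested members higher (18.8%, against 11.9% of 15780 genes) and 6 lower (18.8%, against 13.9%) and a median log2 fold change of 0.07 (all genes 0.00). Smc1b was at 5.77 and 5.30 CPM in the duplicates against 10.9, 13.3 and 22.6 CPM in control (log2 fold change -1.48, SE 0.33, adjusted p = 0.0121), and Stag3 at 44.0 and 41.0 CPM against 81.4, 75.6 and 73.3 CPM (-0.83, SE 0.09, adjusted p = 1.2e-04). Sohlh2 (-0.82, SE 0.17), Slc25a31 (-0.90, SE 0.22), Mael (-0.73, SE 0.16) and Dazl (-0.56, SE 0.16) fell as well. The higher members were Tdrd1, at 7.06 and 6.62 CPM against 3.26, 3.12 and 2.65 CPM (1.20, SE 0.20, adjusted p = 0.00123), Rec8 (1.07, SE 0.15, adjusted p = 4.9e-04), Dpep3 (1.14, SE 0.30), Nanos3 (0.95, SE 0.23), Sycp2 (0.77, SE 0.24) and Ddx4 (0.73, SE 0.12). Of the meiotic cohesin subunits, Rec8 was thus higher and Smc1b and Stag3 lower in the same libraries. Stra8, at 14.7 and 8.28 CPM, had a log2 fold change of 1.29 (SE 0.58, adjusted p = 0.162). Without 1 of the duplicates 7 or 8 of the 12 calls remained, and Sycp2, Dazl, Nanos3, Slc25a31, Dpep3, Mael and Smc1b were lost in at least 1 of these fits. Sycp2 was also lost without control clone #4 and Dazl without control clone #7.

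Apex1 was then compared directly with each glycosylase mutant, a comparison chosen after the values were seen. It uses the same mutant libraries as the comparisons with control and is no further support for them. In EBs 6 of 31 tested members were higher in Apex1 than in Neil1 (background 12.5%) and 10 lower (11.8%). By edgeR 0 of 32 were higher than in Neil2 (5.04%) and 9 lower (6.36%). Against Neil2 13 members had an unadjusted p below 0.05 in either direction, a limit at which the share of all tested genes was not counted. Smc1b was lower by -2.82 (SE 0.13, adjusted p = 2.2e-06) against Neil1 and -3.01 (SE 0.29, adjusted p = 0.00825) against Neil2 on the log2 scale. Sohlh2 (-2.14, SE 0.17, and -2.04, SE 0.20), Mael (-1.65, SE 0.21, and -2.05, SE 0.34), Stag3 (-1.47, SE 0.10, and -1.69, SE 0.14), Dazl (-1.73, SE 0.15, and -1.54, SE 0.30), Hormad1 (-2.68, SE 0.47, and -1.97, SE 0.38), Sycp3 (-1.01, SE 0.15, and -1.06, SE 0.23) and Slc25a31 (-1.58, SE 0.22, and -1.31, SE 0.32) were lower than in both mutants. Against Neil2 the count was 2 without EB Neil2 clone #14, 3 or 2 without an Apex1 duplicate, and 16 without EB Neil2 clone #1, and Smc1b passed in all 5 of these fits. Against Neil1 it was 14 to 18, with Tdrd9, Sycp2 and Nanos3 lost in at least 1 fit.

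In mESCs 7 of 32 members were higher in Apex1 than in Neil1 (13.4%) and 11 lower (13.3%), and 7 of 33 were higher than in Neil2 (18%) and 13 lower (19.3%). Smc1b was at 13.4 and 12.1 CPM in Apex1 mESCs against 52.8 to 73.3 CPM in Neil1 and 63.2 to 70.8 CPM in Neil2 (log2 fold changes -2.32, SE 0.18, and -2.35, SE 0.12). Tdrd1, at 5.10 CPM in each Apex1 duplicate, was higher than in Neil1 by 2.57 (SE 0.33, adjusted p = 0.00432) and than in Neil2 by 1.80 (SE 0.28, adjusted p = 5.7e-04). Without an Apex1 duplicate the calls against Neil1 dropped to 6 or 7, and those against Neil2 to 16 or 13.

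**Figure D4:**
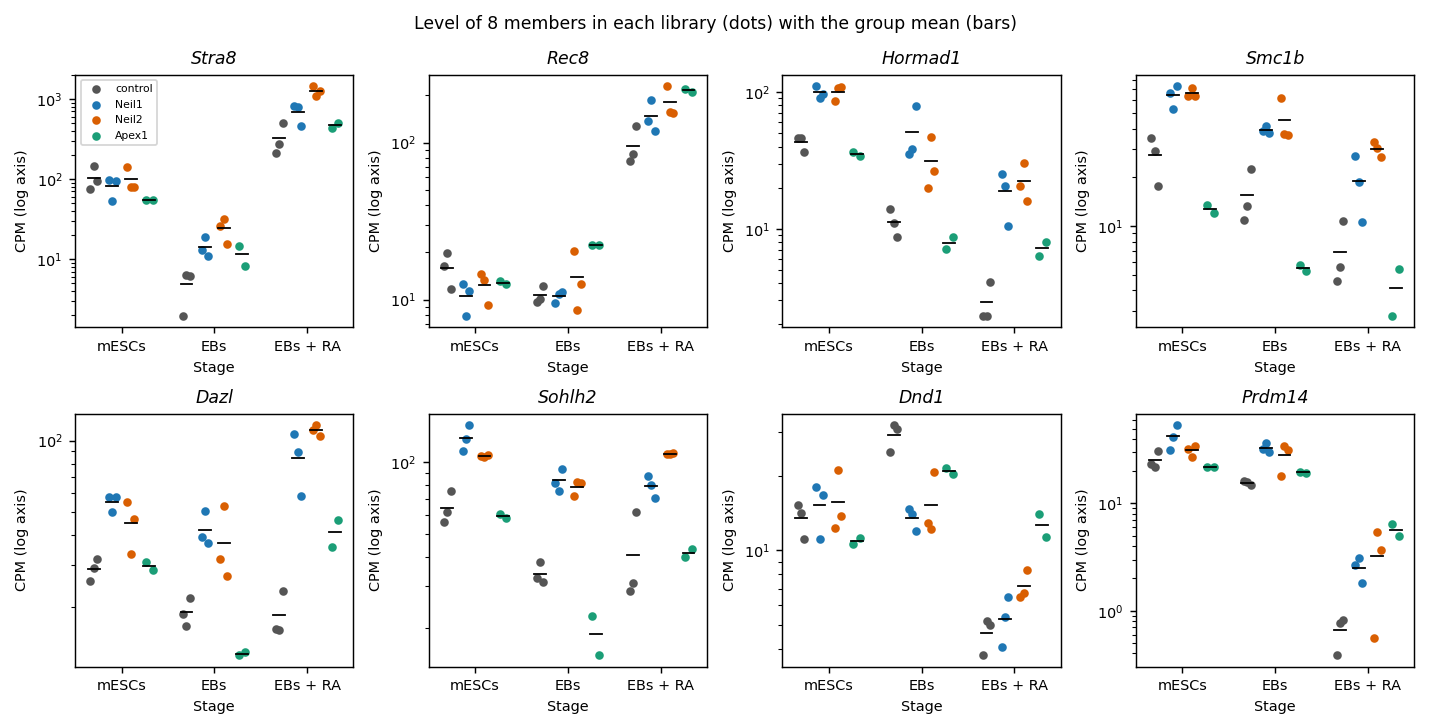
CPM on a log axis of 8 members in each library (dots) by stage and genotype, with the group mean as a bar. Hormad1, Smc1b and Sohlh2 lie higher in Neil1 and Neil2 than in control libraries in mESCs and EBs, and Stra8 drops from 74.8 to 144 CPM in control mESCs to 1.97 to 6.32 CPM in control EBs.

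The EBs + RA libraries, on which part of the choice of members was made, are described without a test. Counts in these libraries are by the size of the fold change alone, beyond 0.5 on the log2 scale in either direction. Of 32 members with enough counts, 25 were higher by this size in Neil1 (26.8% of all genes with enough counts) and 1 lower (23.1%), and 28 were higher in Neil2 (23.7%) and 2 lower (19.4%). Of 31 members in Apex1, 23 were higher (19.5%) and 3 lower (16.9%). Nothing is read from these shares, which the choice of members sets in part. Leaving out single libraries gave 25 to 29, 30 to 31 and 22 to 27 members beyond this size. Of the controls, clone #7 stood apart in several members, with Stra8 at 494 CPM against 214 and 271 CPM, Sohlh2 at 61.7 CPM against 28.8 and 31.0 CPM, and Syce1 at 11.3 CPM against 5.09 and 4.60 CPM. Without it, 29, 31 and 27 members were beyond this size in Neil1, Neil2 and Apex1.

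Stra8 had the highest level of all members per kilobase in control EBs + RA, and its libraries were at 822, 795 and 460 CPM in Neil1, 1448, 1096 and 1270 CPM in Neil2 and 436 and 499 CPM in Apex1. The Neil2 libraries were above all controls (214, 271 and 494 CPM), while Neil1 clone #11 and 1 Apex1 duplicate lay inside the control range (log2 fold changes 1.07, SE 0.33, in Neil1, 1.97, SE 0.29, in Neil2 and 0.54, SE 0.30, in Apex1). Rec8, which had its highest levels with RA, was at 75.9, 84.0 and 127 CPM in control, 137, 187 and 118 CPM in Neil1, 229, 158 and 155 CPM in Neil2 and 221 and 211 CPM in Apex1. Dazl was at 16.1, 15.9 and 23.3 CPM in control, 107, 89.1 and 58.3 CPM in Neil1, 111, 116 and 105 CPM in Neil2 and 35.8 and 46.5 CPM in Apex1. For Dazl all mutant libraries were above all controls (2.18, SE 0.25; 2.59, SE 0.17; 1.18, SE 0.20). Hormad1 was at 2.32, 2.32 and 4.08 CPM in control and 25.2, 20.7 and 10.5 CPM in Neil1, 20.6, 30.5 and 15.9 CPM in Neil2 and 6.35 and 8.05 CPM in Apex1, again without overlap.

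Smc1b and Stag3 separated the mutants in EBs + RA as in EBs. Stag3 was at 43.3, 53.5 and 46.9 CPM in control, 110, 148 and 107 CPM in Neil1 and 104, 166 and 130 CPM in Neil2, but at 25.2 and 41.1 CPM in Apex1, below every control. Smc1b was at 4.57, 5.55 and 10.7 CPM in control, 10.7 to 27.3 CPM in Neil1, 26.5 to 33.2 CPM in Neil2 and 2.79 and 5.45 CPM in Apex1. Prdm14 and Dpep3 had their highest means in Apex1, where Prdm14 was at 6.43 and 5.00 CPM against 0.386, 0.772 and 0.823 CPM in control and Dpep3 at 8.21 and 7.91 CPM against 0.612, 0.552 and 0.691 CPM. Ddx25, a helicase of spermatids, was the member lower by more than 0.5 on the log2 scale in all 3 mutants, at 9.59, 7.5 and 7.47 CPM in control and 2.12 to 4.15 CPM in the mutant libraries. Sohlh1 was at 0.0322, 0.184 and 0.165 CPM in control, 1.90, 1.55 and 21.0 CPM in Neil1, 2.33, 1.43 and 1.95 CPM in Neil2 and 0.339 and 0.480 CPM in Apex1. The Neil1 clone #11 library set the Neil1 mean of this gene, and no fold is given because a control library held 1 count.

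Pluripotency markers were higher along with the members in EBs + RA of each mutant. Neuroectoderm markers were lower, and trophoblast and endoderm markers differed between mutants. The 10 pluripotency markers summed to 248 to 322 CPM in control, 504 to 995 CPM in Neil1, 549 to 1800 CPM in Neil2 and 1710 to 2320 CPM in Apex1, and 9 of the 10 were higher by more than 0.5 on the log2 scale in each mutant. The 4 neuroectoderm markers measured summed to 257 to 431 CPM in control and 42.2 to 79.2 CPM in the mutant libraries, and the 7 markers of gonadal somatic cells to 45.7 to 51.8 CPM and 22.0 to 38.4 CPM. Single gonadal markers did not all follow their sum. Of those with enough counts, 5 of 7, 3 of 6 and 1 of 5 were higher by this size in Neil1, Neil2 and Apex1. In the same order 1, 1 and 2 were lower. The 7 trophoblast markers summed to 143 to 202 CPM in control, 243 to 809 CPM in Neil1, 217 to 360 CPM in Neil2 and 109 to 125 CPM in Apex1, with 6, 5 and 2 of 7 higher by this size and 0, 1 and 4 lower. The 7 endoderm markers summed to 135 to 452 CPM in control, 395 to 829 CPM in Neil1, 137 to 482 CPM in Neil2 and 180 to 197 CPM in Apex1, with 7, 4 and 0 of 7 higher and 0, 0 and 3 lower. Neil1 clone #11 stood apart, with the trophoblast keratin Krt7 at 547 CPM against 190 and 268 CPM in the other Neil1 clones and the endoderm factor Gata4 at 288 CPM against 99.3 and 158 CPM. In EBs + RA no marker of these 5 lists was at 0 in every library of a group. Their part in the members' levels was not tested. Without Stra8, the members summed to 296 to 432 CPM in control, 595 to 815 CPM in Neil1, 809 to 910 CPM in Neil2 and 556 and 585 CPM in Apex1.

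RA was set beside no RA within each genotype in the same descriptive way. In controls 3 of 30 members were higher with RA by more than 0.5 on the log2 scale (25.7% of all genes with enough counts) and 18 lower (22.9%). In Neil1 12 of 32 were higher (31.6%) and 10 lower (27.2%), and in Neil2 9 of 33 were higher (26.8%) and 11 lower (24.9%). Stra8 was higher with RA by 6.14 (SE 0.57), 5.58 (SE 0.31) and 5.71 (SE 0.31) on the log2 scale and Rec8 by 3.19 (SE 0.21), 3.79 (SE 0.19) and 3.71 (SE 0.33). Prdm14 (-4.54, -3.71 and -3.11), Dnd1 (-2.63, -1.37 and -1.08) and Prdm1 (-2.54, -1.95 and -1.59) were lower in all 3 genotypes. Sycp2, an axis protein of the synaptonemal complex, had overlapping levels in control EBs (2.65 to 4.49 CPM) and EBs + RA (2.68 to 5.76 CPM), and went from 3.0, 3.92 and 4.44 CPM to 14.0, 14.0 and 11.8 CPM in Neil1 and from 8.76, 4.87 and 2.83 CPM to 25.8, 13.4 and 11.6 CPM in Neil2. Dazl and Slc25a31 had the same arrangement, with Dazl higher with RA by 0.99 (SE 0.22) in Neil1 and 1.58 (SE 0.24) in Neil2 and overlapping in controls. Without single libraries, 20 to 25 members lay beyond this size in controls, 21 to 23 in Neil1 and 18 to 22 in Neil2.

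Other genes of the same pathways that are no members were read from lists of 13 piRNA, 23 meiosis and 18 further germ cell genes. In Neil1 EBs, where 10.4% of all tested genes rose and 13.1% fell, 6 piRNA genes rose and 2 fell of 13, 5 meiosis genes rose and 2 fell of 22 tested, and 8 germ cell genes rose and 1 fell of 15 tested. In Neil2 EBs, where 8.65% rose and 7.69% fell, the counts were 7 and 1 of 13, 5 and 1 of 22, and 7 and 1 of 16. Hormad2, a paralog of Hormad1, was at 3.44, 4.56 and 3.16 CPM in control EBs, 10.0, 12.1 and 13.5 CPM in Neil1 (log2 fold change 1.67, SE 0.20, adjusted p = 1.7e-04) and 16.8, 11.5 and 12.2 CPM in Neil2 (1.87, SE 0.24, adjusted p = 0.00216). Fkbp6, a co-chaperone of piRNA loading (1.15, SE 0.17, and 1.17, SE 0.19), and the zinc finger protein Gtsf1 (1.39, SE 0.34, and 1.40, SE 0.37) rose in both. Tdrd12, a Tudor domain helicase, also rose in both, from 47.8, 42.8 and 54.0 CPM to 103, 105 and 92.7 CPM in Neil1 (1.05, SE 0.11) and 88.4, 103 and 101 CPM in Neil2 (1.02, SE 0.13). The Tudor domain protein Tdrkh (-1.35, SE 0.21, and -0.86, SE 0.27) and the spermatogonial factor Zbtb16 (-1.88, SE 0.30, and -1.62, SE 0.48) fell. Spo11, the nuclease that starts meiotic recombination, fell at under 1 CPM (-1.30, SE 0.43, and -1.36, SE 0.43). Tuba3a, a testis tubulin, rose from 31.1, 32.9 and 32.6 CPM to 96.7, 113 and 109 CPM in Neil1 (1.72, SE 0.09) and 112, 119 and 130 CPM in Neil2 (1.90, SE 0.12), but is uncertain as reads may be shared with its near-identical copy Tuba3b. In Apex1 EBs, where 11.9% of all tested genes rose and 13.9% fell, 2 of 13 piRNA genes rose and 4 fell, 6 of 22 meiosis genes rose and 1 fell, and 2 of 16 germ cell genes rose and 2 fell. Among them were Gpat2 (-1.52, SE 0.16), Fkbp6 (-0.93, SE 0.21), Tuba3a (-1.29, SE 0.15) and Meioc (1.01, SE 0.15), a meiotic RNA regulator. Zbtb16 (-2.91, SE 0.4) and, at under 1 CPM, Spo11 (-4.07, SE 0.79) fell as in Neil1 and Neil2 EBs, against the same control libraries.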

How the data were processed

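Polyadenylated RNA of 33 libraries was sequenced for 51 cycles from TruSeq RNA v2 libraries. The authors aligned the reads to NCBIM37/mm9 and deposited raw read counts per Ensembl gene. The submitters' processing notes name TopHat2 2.0.9, Bowtie2 2.1.0, HTSeq 0.5.4 and DESeq2 1.6.3. The strand setting of the counting is not given in the sources used here. Totals per library ran from 21523742 to 48350904 counts, which limits the precision of members at few counts. Reads left unassigned by HTSeq (multi-mapped 11.44% to 19.85%, outside genes 5.86% to 8.85%, ambiguous 1.89% to 2.88%) stayed out of library sizes and tests.

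Groups were taken from the sample labels. Each comparison was fitted on the libraries it names with edgeR 4.0.16 in R 4.3.3 (filterByExpr with a minimum count of 10, TMM, robust quasi-likelihood test, two-sided), and p-values were adjusted by Benjamini-Hochberg over all genes tested. A gene was called where its adjusted p lay under 0.1 and its log2 fold change beyond 0.5 in either direction, and for the interaction of stage and genotype at an adjusted p below 0.1. For comparisons with EBs + RA libraries, genes were counted by a log2 fold change beyond 0.5 alone, without a test. The SE of a log2 fold change is its size divided by the square root of the F statistic. CPM values use TMM factors over all 33 libraries. All mutant comparisons of a stage share its control libraries. Tests of 3 against 3 libraries by exact permutation cannot go below p = 0.1 and were not used. On simulated counts with 200 genes changed by 1.5 on the log2 scale, 186 to 198 were recovered in pairwise comparisons and 148 and 150 in the interactions. There were 6 to 34 false calls per comparison. The changed genes were drawn from those with higher counts, at a single fixed dispersion. Recovery at few counts, for smaller changes or at the scatter of the real clones was therefore not measured.

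The 33 members, the other gene lists and the marker lists were chosen with earlier results of these data known. All members are named. Of the other pathway lists, the named genes are among the called genes with the largest fold changes, at most 3 in each direction per comparison. Sequences are shown for at most 6 members with the largest fold changes among those called in EBs or between control mESCs and EBs. Equal replicate numbers name the same clone at each stage, so that the clone was fitted as a block in an alternative. Deviations from the group means correlated at -0.41 to 0.44 over 18 such pairs, 11 of them over 0.1. The correlations were 0.19 to 0.44 between EBs and EBs + RA of a clone, and -0.41 to 0.18 between mESCs and EBs. Other alternatives were DESeq2 1.42.0, RLE size factors, no filter, all genotypes of a stage in 1 fit, summed Apex1 duplicates, stricter limits and leaving out each library. No replicate pair agreed within sampling noise. Promoter sequences are from RefSeq (GRCm38.p6), of which 29 of 33 members had one.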

Additional observations from a re-analysis of the deposited data

Results flagged for a closer look

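Members whose change from mESCs to EBs differed from that in controls, by edgeR's test of the interaction on the log2 scale, were Ddx4 (1.32), Mael (1.14), Tdrd1 (2.06), Sycp2 (1.64), Sycp3 (1.20) and Dnd1 (-1.26) for Neil1, and Tdrd1 (1.39), Sycp1 (1.07), Stra8 (2.44) and Dnd1 (-1.16) for Neil2. These were 6 and 4 of 33 members, against 10.4% of all tested genes in each test. Blocked by clone, Sycp2 and Sycp3 were lost for Neil1 and Sycp1 and Dnd1 for Neil2. Only Ddx4, Tdrd1 and Dnd1 for Neil1 and Stra8 for Neil2 passed in every fit that left out 1 library.

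The members that differed from control in opposite directions in Apex1 and in a glycosylase mutant are given here by their log2 fold change of Apex1 against that mutant. The same mutant libraries chose these members, so that the values are a description and no further support. In mESCs these were Tdrd1 (2.57 against Neil1) and Smc1b (-2.32 against Neil1 and -2.35 against Neil2). In EBs, Apex1 was lower than Neil1 in Mael (-1.65), Smc1b (-2.82), Stag3 (-1.47), Dazl (-1.73), Sohlh2 (-2.14) and Slc25a31 (-1.58), and lower than Neil2 in Mael (-2.05), Smc1b (-3.01), Stag3 (-1.69), Dazl (-1.54) and Sohlh2 (-2.04). The Apex1 libraries are duplicates of 1 clone, so that clone and genotype cannot be told apart.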

How the results depend on the processing

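No call of a single member reversed. Of 187 tested calls of single members, refitted 2363 times, 1883 refits kept the call and 480 had the same direction without passing. Of 136 counts of members under other settings, 110 were within 1.5 times the count given in the report, and the cause was not tested for the others. In mESCs, the Neil1 count of 7 became 11 by DESeq2, 0 with the replicate block, 12 with all genotypes in 1 fit and 0 at an adjusted p below 0.05. The Neil2 count of 4 became 7 by DESeq2, 1 at an adjusted p below 0.05 and 2 at a log2 fold change above 1. The Apex1 count of 7 became 12 with the replicate block, 0 with the duplicates summed, 3 at an adjusted p below 0.05 and 3 at a log2 fold change above 1. In EBs, a log2 fold change above 1 left 7 members for Neil1, 7 for Neil2 and 4 for Apex1, and it left 13 for control EBs against mESCs, 16 for Apex1 in EBs + RA, 14 for RA in Neil1, 8 for Apex1 against Neil2 in mESCs and 9 for Apex1 against Neil1 in EBs. Summing the duplicates left 7 members for Apex1 against Neil1 in mESCs and 3 against Neil2 in EBs. The interaction counts became 11 (Neil1) and 8 (Neil2) by DESeq2, 3 and 1 at an adjusted p below 0.05, and 2 for Neil2 with clone as the replicate block.

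Leaving out 1 library gave 0 to 12 members for Neil1, 0 to 11 for Neil2 and 0 to 13 for Apex1 in mESCs, 13 to 16, 7 to 15 and 7 to 15 in EBs, and 25 to 29, 30 to 31 and 22 to 27 by fold size in EBs + RA. It gave 18 to 27 for control EBs against mESCs, 3 to 8 and 1 to 7 for the interactions, 6 to 20 and 13 to 22 for Apex1 against Neil1 and Neil2 in mESCs, and 14 to 18 and 2 to 16 in EBs.

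Replicate numbers are shared between genotypes only as numbers (45 pairs, r from -0.37 to 0.46, 12 over 0.1). With this replicate block the EB counts went from 16 to 16 (Neil1), 13 to 11 (Neil2, without Stk31 and Sycp1) and 12 to 12 (Apex1, Hormad1 in place of Dazl), and the Neil2 count in mESCs from 4 to 6. Over all genes in mESCs, 283 calls for Neil1 became 999 by DESeq2, 503 without the filter, 0 with the block and 1290 in 1 fit, 286 for Neil2 became 811, 479 and 634 by DESeq2, without the filter and with the block, and 2751 for Apex1 became 6140 with the block and 0 with the duplicates summed. Summed duplicates also took the all-gene calls of Apex1 from 4273 to 481 against Neil1 in mESCs, and from 3777 to 2382 and 1792 to 70 against Neil1 and Neil2 in EBs, and the clone block took those of the Neil2 interaction from 1703 to 982.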

Other observations

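Chromatin and DNA methylation factors that silence germline promoters, read as a list of 20 genes, were called in EBs at shares near or under those of all tested genes. In Neil1 EBs 2 of 20 rose and 1 fell (all tested genes 10.4% and 13.1%), in Neil2 EBs 1 rose and 0 fell (8.65% and 7.69%), and in Apex1 EBs 2 rose and 0 fell (11.9% and 13.9%) by edgeR. At an unadjusted p below 0.05, with no limit on size, 10 of 20 passed in Neil1, 3 in Neil2 and 10 in Apex1. The share of all tested genes at this limit was not counted, and nothing is read from these counts. The median log2 fold changes of the list were 0.10, 0.06 and 0.09. The de novo DNA methyltransferase Dnmt3a rose in Neil1 (0.73, adjusted p = 3.5e-04) and Neil2 EBs (0.65), and the Polycomb subunit L3mbtl2 in Neil1 (0.53) and Apex1 EBs (0.62). EBs + RA are described without a test, by a log2 fold change beyond 0.5. In Neil1 2 of these 20 were higher and 8 lower (26.8% and 23.1% of all genes with enough counts). In Neil2 1 was higher and 7 lower (23.7% and 19.4%), and in Apex1 0 were higher and 2 lower (19.5% and 16.9%). The list summed to 2650 to 2990 CPM in control EBs + RA, 2170 to 2370 CPM in Neil1, 2020 to 2390 CPM in Neil2 and 2460 to 2670 CPM in Apex1.

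Markers of the embryonic lineages differed between genotypes in EBs. Endoderm markers summed to 219 to 435 CPM in control, 338 to 514 CPM in Neil1, 119 to 527 CPM in Neil2 and 53.2 to 67.5 CPM in Apex1. Trophoblast markers summed to 199 to 265 CPM in control, 40.2 to 96.6 CPM in Neil1, 39.8 to 57.5 CPM in Neil2 and 29.7 to 30.5 CPM in Apex1. Markers of gonadal somatic cells were low at 7.06 to 10.8 CPM in all EB libraries.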
